A study of Homo sapiens with 8 samples.

Results

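Tight junctions seal the space between neighbouring epithelial cells, and 9 genes that encode their components were followed here across the 4 conditions of a MYCL study in prostate cancer cells. They are the claudins CLDN1, CLDN3, CLDN4, CLDN7 and CLDN12, the membrane proteins OCLN, MARVELD2 and F11R, and the scaffold gene TJP1. Members were taken by gene symbol from a table of 78691 genes, and each symbol was found in it. The claudins were picked because claudin levels went up with MYCL in one cell line and down after its knockdown in another, so the 2 within-line contrasts below describe the members and do not test them.

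C4-2B is a castration-resistant prostate adenocarcinoma line, and it carried either an empty lentiviral vector (control) or a lentivirus that drove human MYCL from the EF1A promoter together with EGFP (MYCL). NCI-H660 is a neuroendocrine prostate cancer line, and it carried a non-targeting (shCtrl) or a MYCL-targeting (shMYCL) short hairpin RNA. The sources name both adenoviral and stable delivery for the hairpins and do not settle which applied to these libraries. Each of the 4 groups had 2 poly(A) RNA-seq libraries, 8 in all. Titles of the C4-2B control libraries call them biological replicates, and those of the other groups say only replicate. Nothing states that both libraries of a group came from separate transductions.

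Claudins cross the membrane several times, and their extracellular loops pair with claudins of the next cell to form the paracellular seal or, for some claudins, ion-selective pores. Occludin (OCLN) and tricellulin (MARVELD2) belong to the MARVEL family and sit in the same strands, tricellulin mainly at tricellular contacts. Junctional adhesion molecule A (F11R) is an immunoglobulin-type adhesion protein, and ZO-1 (TJP1) binds claudins, occludin and F11R from the cytoplasm and ties them to actin. CLDN3, CLDN4 and CLDN7 are typical of simple and glandular epithelia, prostate included.

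CLDN3 and CLDN4 are neighbours on chromosome 7, and CLDN7, the most abundant claudin in all 8 libraries, lies on chromosome 17. In the GRCh38 annotation CLDN3 spans chr7:73768997-73770270 on the minus strand and CLDN4 spans chr7:73799542-73832690 on the plus strand, 29.3 kb apart with 0 protein-coding genes between. MARVELD2 (chr5:69415065-69444330) and OCLN (chr5:69492292-69558104) form a second neighbouring pair, 48.0 kb apart and both on the plus strand. Promoter windows of these 3 claudins are shown because they carry most claudin transcripts and because CLDN3 and CLDN4 moved together in both lines while CLDN7 did not. Each window is the RefSeq GRCh38.p14 sequence from 250 bases before to 50 bases after a transcription start, read along the gene, and capitals mark every CAGGTG or CACCTG, the 2 strands of one E-box to which SNAIL and ZEB repressors are known to bind. The CLDN3 window is chr7:73770221-73770520 (minus strand), the CLDN4 window chr7:73830746-73831045 (plus strand), and the CLDN7 window shown is chr17:7262429-7262728 (minus strand). The CLDN4 window lies near the far end of the annotated CLDN4 span, so 29.3 kb is not the distance between the windows shown. CLDN7 also has another window, chr17:7263164-7263463, which is not shown.
CLDN3: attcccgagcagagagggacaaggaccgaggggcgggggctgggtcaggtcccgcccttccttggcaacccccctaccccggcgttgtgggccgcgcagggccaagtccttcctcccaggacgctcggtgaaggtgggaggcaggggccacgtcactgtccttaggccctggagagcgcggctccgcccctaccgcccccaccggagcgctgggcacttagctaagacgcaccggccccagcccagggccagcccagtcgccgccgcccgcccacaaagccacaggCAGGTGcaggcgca
CLDN4: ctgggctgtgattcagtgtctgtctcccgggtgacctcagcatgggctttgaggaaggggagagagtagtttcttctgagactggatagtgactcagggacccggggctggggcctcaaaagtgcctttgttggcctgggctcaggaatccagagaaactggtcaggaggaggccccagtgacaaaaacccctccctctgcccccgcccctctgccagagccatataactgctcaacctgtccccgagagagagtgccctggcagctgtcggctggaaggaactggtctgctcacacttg
CLDN7: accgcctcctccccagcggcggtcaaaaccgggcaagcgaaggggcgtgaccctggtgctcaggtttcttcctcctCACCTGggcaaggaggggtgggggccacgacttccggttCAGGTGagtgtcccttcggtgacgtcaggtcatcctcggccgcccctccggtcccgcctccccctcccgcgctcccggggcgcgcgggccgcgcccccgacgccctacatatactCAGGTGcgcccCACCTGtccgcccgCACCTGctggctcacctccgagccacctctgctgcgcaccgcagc
The CLDN3 window held 1 such E-box, starting 37 bases into the transcript, the CLDN4 window held none, and this CLDN7 window held 5. The other CLDN7 window held none. CACGTG, the E-box that MYC-MAX dimers bind best, was searched in the same way, its letters reading alike on both strands. It was absent from all 13 windows found for 8 of the 9 genes, against 7.26% of 35116 RefSeq promoter windows that hold it. CAGGTG or CACCTG was present in 5 of the 13 windows, from CLDN3, CLDN7, TJP1 and OCLN, against 20.6% of all windows. The G+C content was 72.0% for CLDN3, 59.0% for CLDN4 and 71.7% for CLDN7, and the median of all windows was 58.7%.

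The libraries held 15177071 to 32344170 counts, of which the 9 genes took 0.106% to 0.142%. The targeted gene followed its labels: MYCL had 371 and 320 counts in C4-2B control and 65524 and 70253 in C4-2B MYCL, and 1863 and 1602 in shCtrl against 165 and 198 in shMYCL. The luminal markers were all at 1 TPM or more in C4-2B (5 of 5 genes, summed TPM 1116 to 1698), where neuroendocrine markers summed to 0.654 to 1.19 TPM. In NCI-H660 all 6 neuroendocrine markers were at 1 TPM or more (467 to 540.5 TPM summed), whereas KLK3 and KLK2 were listed at 0 and the summed luminal level of 116 to 145 TPM was nearly all FOXA1. CPM below means a library's counts scaled to a common depth with TMM factors, and TPM, which also divides by transcript length, is used wherever genes are compared with each other.

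In C4-2B cells, CLDN3, CLDN4, CLDN7 and CLDN12 were all higher with MYCL, by 1.54- to 1.77-fold, whereas the scaffold gene TJP1 and the tricellulin gene MARVELD2 were lower and OCLN and F11R were close to control. In NCI-H660 cells the picture divided: CLDN3 and CLDN4 were lower after knockdown of MYCL, and CLDN7, CLDN12 and CLDN1 were not. Among the 5 member claudins, the description "claudins that fall after knockdown" therefore held for CLDN3 and CLDN4. In bulk RNA, fewer cells expressing a gene and less RNA per cell cannot be told apart.

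**Figure D1:**
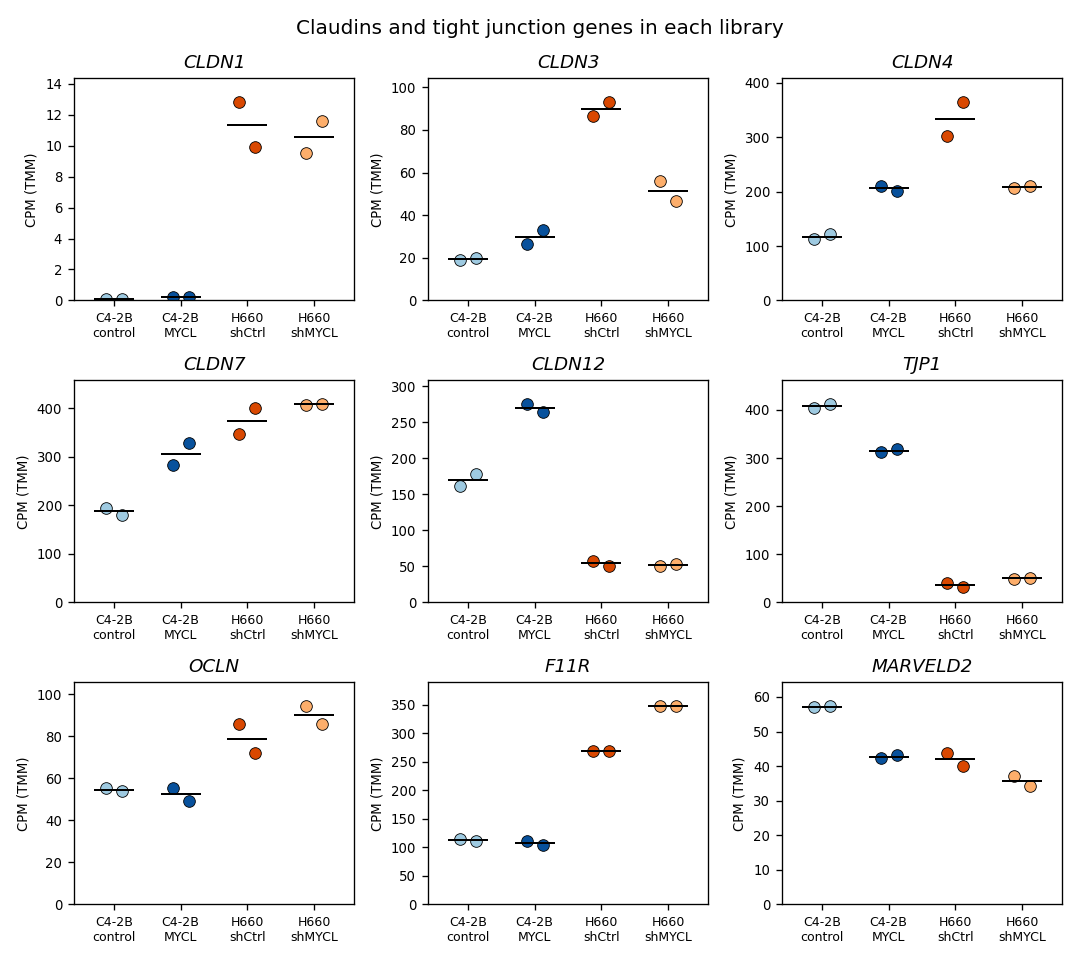
CPM (TMM-scaled, linear axis from 0) of each of the 9 genes in the 8 libraries, with 1 point per library, a bar at the mean of the 2 libraries, and the 4 groups along the x axis. CLDN3 and CLDN4 stepped up with MYCL in C4-2B and down with shMYCL in NCI-H660, CLDN12 and TJP1 were far higher in C4-2B, and CLDN1 was near 0 there.

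CLDN4, a sealing claudin also known as a receptor for Clostridium enterotoxin, measured 112 and 122 CPM in C4-2B control and 211 and 202 CPM in C4-2B MYCL. It measured 303 and 364 CPM in shCtrl and 206 and 210 CPM in shMYCL. Groups did not overlap within either line, and C4-2B MYCL and NCI-H660 shMYCL overlapped with each other. The fitted log2 fold change was 0.82 (SE 0.07) in C4-2B and -0.68 (SE 0.11) in NCI-H660.

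CLDN3, its neighbour and another enterotoxin receptor, was the least abundant of the 4 in C4-2B, with 19.1 and 20.0 CPM in control and 26.7 and 33.2 CPM with MYCL. It reached 86.6 and 93.0 CPM in shCtrl and 56.1 and 46.7 CPM in shMYCL. All 4 groups were separate, in the order C4-2B control, C4-2B MYCL, shMYCL, shCtrl. The log2 fold change was 0.62 (SE 0.12) in C4-2B and -0.81 (SE 0.12) in NCI-H660, the largest fall among the members there. Without the second C4-2B MYCL library the C4-2B value was 0.46, under the fold minimum of 0.5 used for calls.

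CLDN7, which associates with EpCAM at the lateral membrane, measured 195 and 180 CPM in C4-2B control and 283 and 329 CPM with MYCL, a log2 fold change of 0.71 (SE 0.09). In NCI-H660 it measured 346 and 400 CPM in shCtrl and 407 and 409 CPM in shMYCL. The log2 fold change there was 0.13 (SE 0.11), and it was 0.03 without the first and 0.24 without the second shCtrl library.

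CLDN12, a claudin without the C-terminal motif that binds ZO proteins, measured 162 and 178 CPM in C4-2B control and 275 and 265 CPM with MYCL, a log2 fold change of 0.68 (SE 0.08). The NCI-H660 libraries lay at 57.4 and 50.7 CPM (shCtrl) and 49.97 and 52.7 CPM (shMYCL). Those groups overlapped, with a log2 fold change of -0.08 (SE 0.11).

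CLDN1, the sealing claudin of skin and of basal epithelial cells, was at the edge of detection in C4-2B: 2 and 2 counts in control and 4 and 4 counts with MYCL. The CPM ratio of 3.12 had a 95% exact counting interval of 0.837 to 14.2, so no difference was detectable at this depth, and the gene did not enter the fit of that line. In NCI-H660 it had 229 and 194 counts in shCtrl and 153 and 191 in shMYCL (12.8, 9.90, 9.54 and 11.6 CPM). The groups overlapped, and the log2 fold change was -0.11 (SE 0.18).

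TJP1 moved the other way from the claudins in C4-2B, with 403 and 412 CPM in control and 313 and 319 CPM with MYCL (log2 fold change -0.36, SE 0.07). In NCI-H660 it measured 41.4 and 32.9 CPM in shCtrl and 48.8 and 51.2 CPM in shMYCL, higher by 0.43 on the log2 scale (SE 0.13). The libraries of the 2 conditions were separate in both lines, and neither value passed the fold minimum. Without the first shCtrl library the NCI-H660 value was 0.60, past the minimum, and without the second it was 0.27.

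The MARVEL genes parted from each other. MARVELD2 measured 57.1 and 57.3 CPM in C4-2B control and 42.3 and 43.2 CPM with MYCL, and 43.9 and 40.1 CPM in shCtrl against 37.2 and 34.2 CPM in shMYCL. Its groups were apart in both lines, with log2 fold changes of -0.41 (SE 0.08) with added MYCL and -0.24 (SE 0.12) after knockdown, neither past the fold minimum. OCLN measured 55.2 and 53.9 CPM in C4-2B control and 55.6 and 49.1 CPM with MYCL, which overlapped (-0.05, SE 0.09). In NCI-H660 it measured 85.8 and 72.1 CPM in shCtrl and 94.4 and 86.0 CPM in shMYCL (0.19, SE 0.11), with groups just apart.

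F11R measured 115 and 112 CPM in C4-2B control and 111 and 104 CPM with MYCL, a log2 fold change of -0.07 (SE 0.07). In NCI-H660 it was higher in both knockdown libraries, at 347 and 347 CPM against 268 and 269 CPM (0.37, SE 0.10). F11R shares 36.6% of its exon bases with a readthrough-type gene on the same strand (ENSG00000270149), which held 139 to 688 counts of its own, so reads may have been divided between them. CLDN7 shares 10.8% of its exon bases with another same-strand gene, which held at most 1 count in any library. CLDN12 shares 7.9% with PTTG1IP2, 5.5% with ENSG00000273299, 5.2% with GTPBP10 and 3.0% with CDK14, all on the same strand. The counts of those overlapping genes were not examined.

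By the call rule used here (edgeR adjusted p under 0.05 and a log2 fold change of at least 0.5 in size), 4 of the 8 fitted members were called higher in C4-2B, where 11.8% of all 16866 genes tested were called higher and 8.12% lower. In NCI-H660, 2 of 9 were called lower, where 8.99% of 16980 genes were called lower and 7.18% higher. Groups did not overlap for 4 members higher and 2 lower in C4-2B (34.5% and 34.7% of all genes) and for 4 higher and 3 lower in NCI-H660 (31.1% and 32.0%). These counts use TMM factors from each line on its own, on which the F11R groups of C4-2B overlapped, whereas on the CPM scale given above they were just apart. The median over the fitted members was a log2 fold change of 0.28 with MYCL in C4-2B (all genes tested, -0.0017), and after knockdown in NCI-H660 it was -0.08 (all genes tested, -0.0029). The members were chosen on these contrasts, so nothing is read from these counts.

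**Figure D2:**
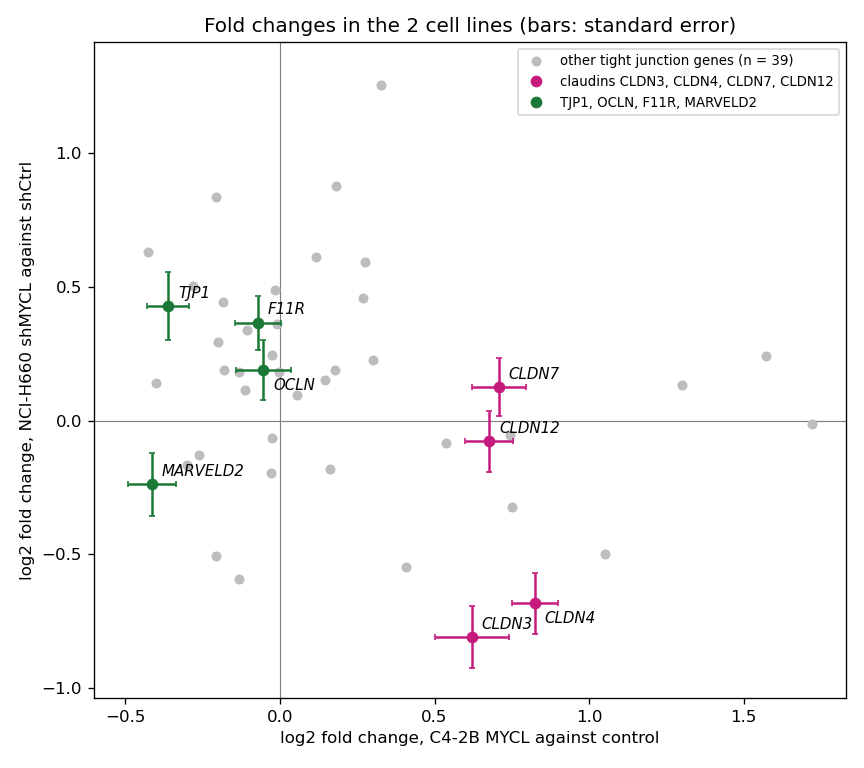
Log2 fold change in C4-2B (MYCL against control, x axis) against that in NCI-H660 (shMYCL against shCtrl, y axis), with bars of 1 standard error for the 8 members fitted in both lines and grey points for 39 other tight junction genes. CLDN3 and CLDN4 lie at the lower right, CLDN7 and CLDN12 at the right near 0 on the y axis, and TJP1 and F11R above 0 on the y axis.

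Compared per transcript length, CLDN7 was the most abundant of the 9 genes in each library. The mean TPM in C4-2B control was 188 ± 9.07 (SD, n = 2) for CLDN7, 88.3 ± 5.49 for CLDN4, 72.1 ± 0.717 for TJP1, 57.2 ± 4.39 for CLDN12, 32.7 ± 0.918 for F11R and 21.8 ± 0.896 for CLDN3. MARVELD2 and OCLN stood at 15.9 and 15.1 TPM and CLDN1 at 0.027 TPM. In NCI-H660 shCtrl the order was different below the first places: CLDN7 at 535 TPM was followed by CLDN4 (386), CLDN3 (153), F11R (121), OCLN (41.3), CLDN12 (28.0), MARVELD2 (17.8), TJP1 (9.54) and CLDN1 (6.10).

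The 5 member claudins made up 97.6% to 99.0% of the TPM summed over 24 claudin genes. That sum was 362 and 365 TPM in C4-2B control, 540 and 542 TPM with MYCL, 1082 and 1182 TPM in shCtrl, and 960 and 951 TPM in shMYCL. In C4-2B the mix changed little as the sum went up: CLDN7 held 53.7% and 49.7% in control and 49.6% and 53.4% with MYCL, and CLDN4 held 23.3% and 25.2% against 28.0% and 24.9%. In NCI-H660 the mix shifted toward CLDN7, which held 47.0% and 47.6% in shCtrl and 59.9% and 60.8% in shMYCL, while CLDN4 went from 33.3% and 34.8% to 25.2% and 25.8%. CLDN3 held 14.1% and 13.0% in shCtrl and 10.0% and 8.34% in shMYCL.

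Ratios of counts within a library do not depend on scaling between libraries. The CLDN4 to CLDN7 ratio was 0.576 and 0.676 in C4-2B control and 0.746 and 0.615 with MYCL, which overlapped. It was 0.875 and 0.911 in shCtrl and 0.506 and 0.515 in shMYCL. The CLDN3 to CLDN7 ratio behaved alike, at 0.250 and 0.233 in shCtrl and 0.138 and 0.114 in shMYCL, whereas the CLDN3 to CLDN4 ratio overlapped between those groups (0.286 and 0.255 against 0.272 and 0.222).

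**Figure D3:**
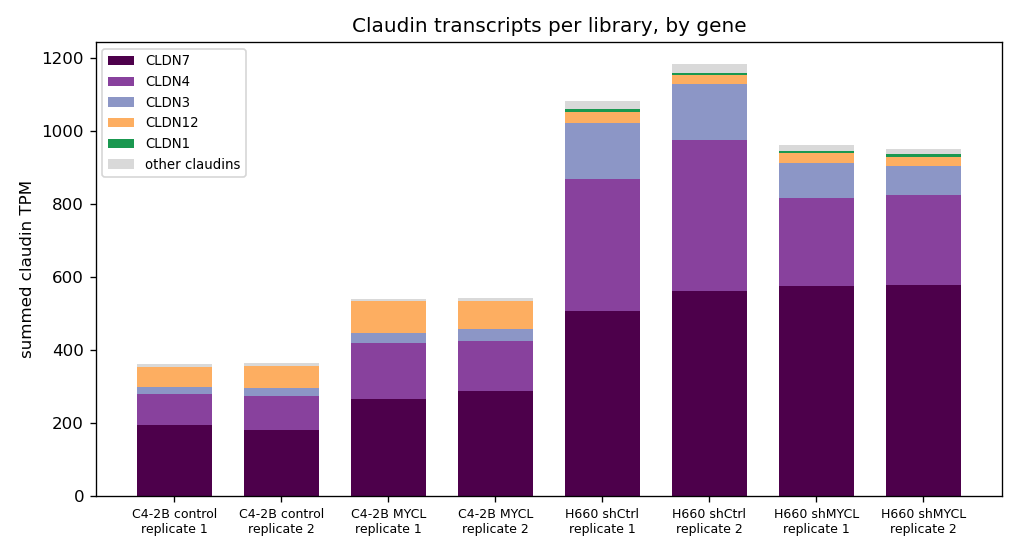
Summed TPM of 24 claudin genes in each of the 8 libraries (y axis, linear from 0), stacked by gene, with the 19 claudins outside the members pooled in grey. The bars grow with MYCL in C4-2B with similar proportions, and in NCI-H660 the CLDN4 and CLDN3 segments are smaller in the 2 shMYCL bars while the CLDN7 segment is not.

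The contrast between the cell lines, averaged over both conditions of each, was not used to choose the members and was tested with edgeR over all 8 libraries and 19605 genes. CLDN3, CLDN4, CLDN7, OCLN, F11R and CLDN1 were higher in NCI-H660, and CLDN12 and TJP1 were lower. So 6 of 9 members were called higher and 2 lower, where 37.8% and 35.2% of all genes were, and 73.0% in either direction. CLDN1 counts among the 6 although it passed the count filter only through NCI-H660, where it is high. Most genes differ between these lines, and line, vector and culture cannot be told apart.

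The scaffold gene TJP1 had the largest difference downward in NCI-H660 (log2 fold change -3.06, SE 0.08, edgeR adjusted p = 2.05e-13), and CLDN12 followed with -2.02 (SE 0.07, adjusted p = 3.5e-12). All 4 NCI-H660 libraries lay below all 4 C4-2B libraries for both genes, as for 33.9% of all genes, and the reverse held for 36.8%, with CLDN1, CLDN3, CLDN7, OCLN and F11R among them. CLDN3 was higher in NCI-H660 by 1.49 (SE 0.09, edgeR adjusted p = 1.46e-09) and F11R by 1.47 (SE 0.06, adjusted p = 1.98e-11). CLDN4 (0.76, SE 0.07, edgeR adjusted p = 1.63e-07), CLDN7 (0.70, SE 0.07, adjusted p = 5.0e-07) and OCLN (0.66, SE 0.07, adjusted p = 1.83e-06) differed less. In the control libraries of the lines alone CLDN4 was higher by 1.504, CLDN3 by 2.19 and CLDN7 by 0.98. Those libraries also entered the contrasts that chose the claudins, so these larger values are not independent of the choice and nothing is read from them. On log2(TPM + 1) CLDN4 was higher by 1.44, CLDN7 by 1.28, OCLN by 1.62, CLDN3 by 2.13 and F11R by 2.14, with CLDN12 at -1.31. On that scale the median of all genes was shifted up by 0.59. CLDN4 was the one called member whose libraries overlapped between the lines, at C4-2B MYCL and shMYCL.

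CLDN1 was called higher in NCI-H660, with 767 counts there against 12 in C4-2B. It passed the count filter only through NCI-H660, so the direction of that call was largely fixed in advance. The CPM ratio was 79.8, with a 95% exact counting interval of 45.4 to 155. MARVELD2 was 0.35 lower in NCI-H660 (log2 fold change -0.35, SE 0.07, edgeR adjusted p = 2.86e-04), short of the fold minimum. Its direction depended on the unit: on log2(TPM + 1) it was 0.33 higher, less than the shift of the median of all genes.

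**Figure D4:**
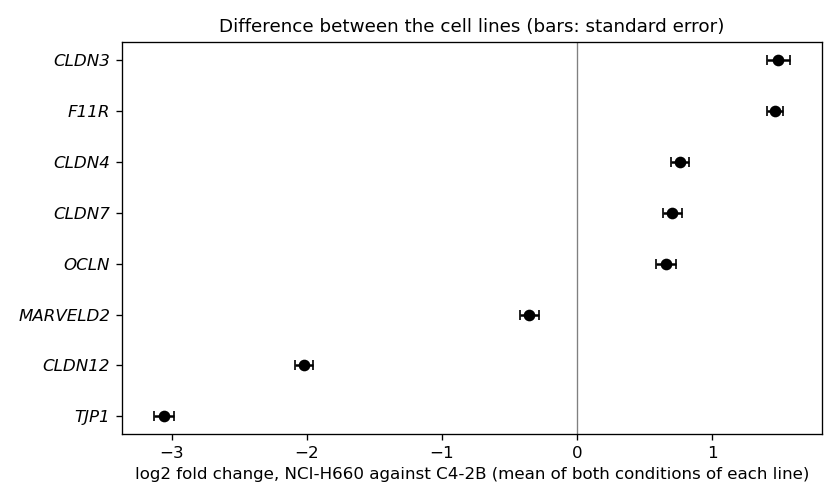
Log2 fold change of NCI-H660 against C4-2B, averaged over both conditions of each line (x axis), for 8 of the 9 genes, with bars of 1 standard error. CLDN1 is left out because its C4-2B libraries held 2 to 4 counts, TJP1 and CLDN12 lie furthest to the left, and CLDN3 and F11R furthest to the right.

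Of 58 other tight junction genes in 3 lists (19 claudins, 11 other transmembrane proteins, 28 plaque and polarity proteins), 41 could be tested in C4-2B. With MYCL 7 were called higher (17.1% of the 41 called in all, against 19.9% of all genes): BVES, CRB3 and ESAM among the transmembrane genes and TJP3, PRKCZ, AMOTL2 and ARHGEF2 among the plaque and polarity genes. ESAM had 6 to 8 counts in the control libraries and passed the count filter only through the MYCL libraries. By edgeR 0 were called lower, with 4 lower at an unadjusted p under 0.05 and 0 called by DESeq2. The median log2 fold change of the 41 was -0.01. Only 3 of the 19 other claudins had enough counts to be tested, and 0 of them were called by edgeR or DESeq2 or had an unadjusted p under 0.05.

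BVES (listed under its current symbol POPDC1), a membrane adhesion protein that binds ZO-1, rose from 79 and 90 counts to 147 and 181 in C4-2B (2.57 and 3.997 against 8.37 and 10.9 CPM). Its log2 fold change was 1.57 (SE 0.26, edgeR adjusted p = 0.00202). ARHGEF2, the microtubule- and junction-bound RhoA activator GEF-H1, rose from 23.4 and 26.6 CPM to 53.3 and 69.0 CPM, by 1.30 (SE 0.13, edgeR adjusted p = 1.65e-04). The libraries with MYCL were above both controls for these 2 genes.

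In NCI-H660, 43 of the 58 genes were tested, and 6 were called higher after knockdown and 5 lower (25.6% called, against 16.2% of all genes). The 6 were all plaque and polarity genes: CGNL1, PARD3, ARHGEF11, CGN, AMOTL1 and TJAP1. The 5 that fell were the claudins CLDN11 and CLDN18, the membrane proteins JAM3 and MARVELD3, and the angiomotin AMOT. The median log2 fold change of the 43 was 0.18. The count of genes called lower rested on single libraries, being 1 without the second shMYCL library and 3 without the second shCtrl library.

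CLDN11, the claudin of myelin and of the testis barrier, fell from 270 and 296 counts in shCtrl to 54 and 68 in shMYCL (15.1 and 15.1 against 3.37 and 4.12 CPM). Its log2 fold change of -2.01 (SE 0.19, edgeR adjusted p = 3.39e-06) was larger than those of CLDN3 and CLDN4, and it had at most 1 count in any C4-2B library. CLDN18, a claudin of stomach and lung, had 13 and 14 counts in shCtrl and 3 and 0 in shMYCL, and it passed the count filter only through shCtrl. That ratio of 7.82 had a 95% exact counting interval of 2.41 to 40.3, and its call (edgeR adjusted p = 0.0277) was lost with DESeq2, in the fit of all 4 groups, on unfiltered TPM, and without either shCtrl library or the second shMYCL library (adjusted p 0.0136 to 0.313 over the alternatives).

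PARD3, the polarity scaffold that helps place tight junctions, rose after knockdown from 53.0 and 51.7 CPM to 94.6 and 98.0 CPM (log2 fold change 0.88, SE 0.10, edgeR adjusted p = 3.12e-05). ARHGEF11, a RhoA activator that binds ZO-1, rose from 66.9 and 63.8 CPM to 122 and 112 CPM (0.84, SE 0.11, edgeR adjusted p = 5.03e-05). CGNL1, or paracingulin, rose from 22 and 22 counts to 43 and 49 (1.26, SE 0.38, edgeR adjusted p = 0.0235). The CGNL1 call was lost with DESeq2, on unfiltered TPM and when any one of the 4 NCI-H660 libraries was left out (adjusted p up to 0.238).

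Known partners of claudins (adhesion proteins, membrane proteases with an inhibitor, and a kinase) made a list of 6, of which 5 were tested in each line. In C4-2B 1 was called (19.9% of all genes were), PRSS8, a membrane serine protease of epithelia, which rose by 0.75 on the log2 scale (SE 0.09, edgeR adjusted p = 4.08e-04). In NCI-H660 edgeR and DESeq2 called 0 (edgeR called 16.2% of all genes), and 3 were lower and 0 higher at an unadjusted p under 0.05.

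Among 15 transcription and splicing regulators of epithelial or mesenchymal identity, 12 were tested in C4-2B and 13 in NCI-H660. With MYCL ELF3, ESRP1 and the SNAIL repressor SNAI2 rose and KLF5 and ESRP2 fell in C4-2B, 5 of 12 against 19.9% of all genes called. After knockdown ELF3 and EHF fell in NCI-H660, 2 of 13 against 16.2%. ELF3, an epithelial ETS factor, thus rose with MYCL and fell after its knockdown, the directions described for CLDN3 and CLDN4.

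ELF3 measured 21.3 and 22.6 CPM in C4-2B control and 83.9 and 79.1 CPM with MYCL, a log2 fold change of 1.90 (SE 0.09, edgeR adjusted p = 4.03e-06). In NCI-H660 it measured 182 and 223 CPM in shCtrl and 126 and 118 CPM in shMYCL (-0.73, SE 0.12, edgeR adjusted p = 3.21e-04). EHF, a related ETS factor, fell from 326 and 280 CPM to 194 and 194 CPM (-0.65, SE 0.11, edgeR adjusted p = 5.06e-04). KLF5, a Kruppel-like factor of epithelia, fell in C4-2B from 11.2 and 11.3 CPM to 6.78 and 6.58 CPM (-0.75, SE 0.15, edgeR adjusted p = 0.00513), a call lost on centred or unfiltered TPM. ESRP2, an epithelial splicing regulator, fell from 72.5 and 68.8 CPM to 45.2 and 44.7 CPM (-0.65, SE 0.08, edgeR adjusted p = 4.29e-04). The change with more against less MYCL differed between the lines for these 4 genes by edgeR's test of the difference, which called 17.9% of all genes. They were named for calls in the within-line contrasts that make up this difference, so the test was not independent of their choice.

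The genes whose profile over the 8 libraries lay nearest to each member claudin were sought among 13030 genes, as the root mean square difference of centred log2 CPM. For CLDN3 they were CERS4 (0.101) and GMDS-DT (0.134), and for CLDN4 VIM-AS1 (0.108) and CDKN1B (0.127). For CLDN7 they were JUNB (0.062) and DNAJB1 (0.084), and for CLDN12 UBE2H (0.106) and SLC66A3 (0.107). CLDN1 had no profile as near, with NFASC at 0.221 and MAPRE2 at 0.223. It held only 2 to 4 counts in each C4-2B library, so its profile there was imprecise and nothing is read from the larger difference.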

How the data were processed

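RNA-seq was measured in 8 libraries (poly(A), paired-end Illumina), 2 for each of 4 groups. The authors deposited estimated counts per gene and TPM values, made on hg38 per the labels. The aligner, counter and annotation release are not given in the sources used here. Of the nonzero deposited counts, 21.5% to 24.0% per library were not whole numbers (tolerance 0.01), and all were rounded. The deposited TPM table held 65535 genes, all 9 members among them. Positions came from GENCODE 44, in which 61458 of the 78691 identifiers were found, and promoter windows from RefSeq, with none used here for F11R.

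Counts were fitted with edgeR 4.0.16 (TMM, filterByExpr, quasi-likelihood test, Benjamini-Hochberg adjustment over all genes tested) in R 4.3.3, each line on its own and all 8 libraries for the line contrast and for differences between lines. Calls needed an adjusted p under 0.05 and a log2 fold change of at least 0.5 in size. Standard errors were the log2 fold change divided by the square root of F. DESeq2 1.42.0, limma 3.58.1 on log2 TPM, other filters and left-out libraries were alternatives. The fit was tested on simulated data. P-values measure the spread between these libraries, which may be technical. An exact permutation test of 2 against 2 cannot go below p = 0.33 and was not used. Counting intervals cover counting error only.

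The members and lists were chosen with earlier results of these data known. Named genes were the 9 members, MYCL, for each line and direction up to 3 called list genes with the largest fold change at a mean log2 CPM of at least 1, called claudins, and the 2 nearest profiles per member claudin. CRB3, ESAM, TJP3, PRKCZ, AMOTL2, CGN, AMOTL1, TJAP1, JAM3, MARVELD3, AMOT, PRSS8, ESRP1 and SNAI2 were named after their values were seen, to complete the counts. Luminal markers were KLK3, KLK2, HOXB13, FOXA1 and TMPRSS2, and neuroendocrine markers CHGA, CHGB, SYP, INSM1, NCAM1 and SCG2. Some genes of the marker and partner lists are not reported here.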

Additional observations from a re-analysis of the deposited data

Results flagged for a closer look

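The change with more against less MYCL was tested for a difference between the lines with edgeR over all 8 libraries. A call needed an adjusted p under 0.05 and a log2 difference of at least 0.5 in size, which 17.9% of 19605 genes passed. Among the non-member list genes 19 of the 64 tested were called, and so were 9 of the 11 named by rule. Those 11 were named for calls in the within-line contrasts that make up this difference, so nothing is read from their share. Each value below is the log2 fold change of MYCL against control in C4-2B minus that of shCtrl against shMYCL in NCI-H660. Among tight junction genes it was 1.82 for BVES (SE 0.33, adjusted p = 0.00226), 1.58 for CGNL1 (SE 0.27, adjusted p = 0.00137), 1.43 for ARHGEF2 (SE 0.17, adjusted p = 1.42e-04), 1.06 for PARD3 (SE 0.17, adjusted p = 9.50e-04) and 0.63 for ARHGEF11 (SE 0.14, adjusted p = 0.00841). Among regulators it was 1.16 for ELF3 (SE 0.15, adjusted p = 2.14e-04), -1.02 for KLF5 (SE 0.16, adjusted p = 7.53e-04), -0.81 for ESRP2 (SE 0.20, adjusted p = 0.0117) and -0.54 for EHF (SE 0.13, adjusted p = 0.0104). ELF3 was higher with more MYCL in both lines, and by more in C4-2B. The hairpin, the vector, the cell line and the size of the MYCL change cannot be told apart in these differences. Mean MYCL was 13.1 CPM in C4-2B control and 3987 CPM in C4-2B MYCL, and 93.0 CPM in shCtrl and 11.1 CPM in shMYCL.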

How the results depend on the processing

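Over 238 alternative values of the members within a line, 190 moved by less than 1 SD between libraries and 4 turned direction: OCLN in C4-2B (-0.14 to 0.034 with a library left out, the upper value without the second MYCL library), CLDN1 in NCI-H660 (-0.28 to 0.092, above 0 without the first shCtrl or the first shMYCL library, the latter at 0.035) and CLDN12 in NCI-H660 (-0.16 to 0.016, above 0 without the first shCtrl library). On log2(TPM + 1) the median of all genes in C4-2B was -0.14, and CLDN3 (0.45) fell under the fold minimum while TJP1 (-0.53) and MARVELD2 (-0.57) passed it. Of 161 alternative values of the line difference, 157 kept direction and call. These include values from the control libraries alone, which also entered the choice of the claudins. MARVELD2 turned to 0.33 on log2(TPM + 1), with or without the TPM filter, and to 0.35 on log2(TPM + 0.1), and CLDN7 was 0.49 on TPM centred on each library, chosen after seeing the data. Members called higher in NCI-H660 numbered 3 with a fold minimum of 1. Other tight junction genes called higher in C4-2B (7) numbered 10 with no fold minimum, 4 with a fold minimum of 1, 4 on either log2 TPM scale and 3 on unfiltered TPM, and 5 to 6 with a library left out. Those called lower (0) numbered 2 with no fold minimum, 1 with no count filter, 2 on either log2 TPM scale and 0 to 1 with a library left out, the 1 being without the first MYCL library. In NCI-H660 those called higher (6) numbered 10 with no fold minimum, 1 with a fold minimum of 1, 0 on unfiltered TPM, where limma called 1 gene in all, and 5 to 8 with a library left out. Those called lower (5) numbered 2 with a fold minimum of 1, 3 with DESeq2, 3 on either log2 TPM scale, 3 on centred TPM, 0 on unfiltered TPM and 1 to 4 with a library left out. Of 161 alternative values of the non-member list genes named by rule, 141 kept direction and call. The call was lost for the other 20, 9 of them on unfiltered TPM. The cause was not tested. Replicate numbers were shared between groups by number only. After each group's mean was subtracted per gene, log2(CPM + 1) of same-numbered libraries correlated over genes at 0.016 in C4-2B and 0.027 in NCI-H660. With the replicate number as a block, other tight junction genes called were 6 higher and 0 lower in C4-2B and 7 higher and 5 lower in NCI-H660, and members called between the lines stayed at 6 and 2 in number. Over all genes the replicate block gave 3536 calls in C4-2B against 3355, 2949 in NCI-H660 against 2745 and 14253 between the lines against 14306. With 2 libraries a group, small differences such as those of CLDN7, OCLN and CLDN12 in NCI-H660 are not resolved, although of these genes only CLDN12 had overlapping groups.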

Other observations

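Of the 19 claudins outside the members, 6 could be tested between the lines, and 4 were called higher in NCI-H660 and 1 lower. Of the 6 tested, CLDN9, CLDN11 and CLDN18 passed the count filter only through NCI-H660 and CLDN8 only through C4-2B. The directions of those genes were thus largely fixed in advance, and nothing is read from the counts of calls. The highest level of any of the 19 in the 8 libraries was 10.6 TPM (CLDN11, first shCtrl library), where CLDN7 had 181 TPM or more. The genes in this paragraph were chosen after their values were seen, on a contrast in which 73.0% of all genes were called. CLDN8 had 39 to 92 counts in the C4-2B libraries and 0 in all 4 NCI-H660 libraries. CLDN23 was 0.87 higher in NCI-H660 on the log2 scale (SE 0.15, edgeR adjusted p = 7.90e-05), at 7.89 to 9.26 CPM against 4.26 to 5.28. EPCAM, the adhesion protein that binds CLDN7, was 2.39 higher in NCI-H660 (SE 0.06, edgeR adjusted p = 3.25e-13), with 667 to 799 CPM against 119 to 155. CDH1, the adherens junction cadherin, was lower in NCI-H660 by 2.16 (log2 fold change -2.16, SE 0.06, edgeR adjusted p = 1.08e-12), with 148 to 184 CPM against 621 to 847. LSR, which recruits tricellulin to tricellular contacts, was 2.51 higher (SE 0.08, edgeR adjusted p = 1.30e-12), whereas MARVELD2 itself fell short of the fold minimum.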
